A study of Homo sapiens with 30 samples.

Results

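UBD, the ubiquitin-like modifier also called FAT10, was followed together with 8 genes of the immunoproteasome and of class I antigen presentation in HepG2 cells. These 9 genes were PSMB8, PSMB9, PSMB10, TAP1, TAP2, B2M, HLA-B and HLA-C beside UBD, out of 60107 genes in the count table, of which 25347 had a count in at least 1 library. They were taken by symbol. UBD had been chosen by its fall with the miR-512-3p mimic, with no treatment named, so its values in every comparison that uses the mimic control or that mimic are a description with no test. In vehicle, where the fall was larger, the same holds for all 9 genes. HepG2 is an established human liver tumor cell line, and each of 10 groups had 3 libraries of 3′ mRNA tags (QuantSeq). Cells carried an inhibitor control (IC) or an antisense inhibitor of miR-200c-3p (I200c) and were collected after 6 h of drug or vehicle. Other cells carried a mimic control (MC), a miR-222-5p mimic (M222) or a miR-512-3p mimic (M512) and were collected after 24 h. Every culture had therefore been transfected, and 24 h later received either DMSO, the vehicle, or 10 µM Sorafenib, a multikinase inhibitor used against liver cancer. The labels do not say whether the 3 libraries of a group came from separate cultures. The study describes its sequencing experiments as 3 independent replicates, without saying what was kept separate. The p-values measure the spread between these libraries only.

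Nucleated cells display peptides of their own proteins on class I molecules. Each such molecule is a heavy chain, such as the products of HLA-B and HLA-C, bound to beta-2 microglobulin, the product of B2M. The peptides are cut by the proteasome, and interferon or inflammatory signals replace its catalytic subunits with PSMB8, PSMB9 and PSMB10 to form the immunoproteasome. The transporter made of TAP1 and TAP2 carries the peptides into the endoplasmic reticulum. UBD marks proteins for the proteasome without ubiquitin, is induced by interferon gamma and tumor necrosis factor through NF-kappaB and interferon regulatory factors, and is often raised in liver cancer.

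The small RNAs and their sites are shown because every comparison between transfections turns on one of them. The mature sequences from RefSeq (GRCh38.p14) are given 5′ to 3′ with the seed, bases 2 to 8, in capitals. miR-200c-3p lies at chr12:6963742-6963764 on the plus strand and miR-222-5p at chrX:45747073-45747094 on the minus strand. miR-512-3p is encoded at chr19:53666729-53666750 and again at chr19:53669213-53669234, both on the plus strand.
miR-200c-3p: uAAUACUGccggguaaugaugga
miR-222-5p: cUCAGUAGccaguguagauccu
miR-512-3p: aAGUGCUGucauagcugagguc

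The reference 3′ UTR of each gene was searched for the 7 bases complementary to each seed. The 365-base UTR of UBD held none of the 3 sites. HLA-B held 1 site for miR-222-5p at position 300 of 426, a site present in 9.34% of 18780 UTRs, while HLA-C held none for any of the 3. TAP1 held 1 site for miR-512-3p at position 237 of 370 (19.9% of UTRs), and TAP2 held 2 sites for miR-200c-3p at positions 614 and 3405 of 3491 (16.4% of UTRs). PSMB8, PSMB9, PSMB10 and B2M held none. RELA, the p65 subunit of NF-kappaB, is added because its level is used below, and was chosen after its values were seen. It held 1 miR-512-3p site at position 563 of 777. IRF1 and IRF2, named for the same reason, held 2 and 1. A match of letters is a description of the reference and not evidence of binding. Each site is in capitals.
HLA-B, miR-222-5p: ttcttacttccCTACTGAaaataagaatc
TAP1, miR-512-3p: tttggtgtggcCAGCACTctgaaactgag
TAP2, miR-200c-3p, first: tccctgattaaCAGTATTaatagcgacat
TAP2, miR-200c-3p, second: ttattcttgctCAGTATTttcgcaaacag
RELA, miR-512-3p: aaccagtgcaaCAGCACTggctctctcca

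The promoters of UBD, TAP1 and B2M are shown because NF-kappaB and interferon genes are set beside these 3 genes below. Each runs from 250 bases before to 50 bases after a RefSeq start in GRCh38.p14, with matches in capitals. The UBD window is chr6:29559683-29559982 on the minus strand, TAP1 is chr6:32853655-32853954 on the minus strand and B2M is chr15:44711267-44711566 on the plus strand. The kappaB motif, searched on both strands, matched at position 198 in UBD and also in TAP1, B2M, HLA-B and HLA-C, and 11.3% of 35116 promoters of this length held it. The core of the interferon-stimulated response element was searched on both strands as 2 copies of GAAA that stand 2 bases apart. It matched in B2M, TAP1, TAP2, PSMB8 and PSMB10 and in 3.57% of promoters, but not in the window of UBD, PSMB9, HLA-B or HLA-C. The GAS element, searched as TTCNNNGAA, matched in PSMB8, in the window of another TAP1 start that is not shown, and in 7.66% of promoters. A further PSMB8 start held no match. Overlapping matches run together in the capitals, and no match says only that these letters are not in the window.
UBD: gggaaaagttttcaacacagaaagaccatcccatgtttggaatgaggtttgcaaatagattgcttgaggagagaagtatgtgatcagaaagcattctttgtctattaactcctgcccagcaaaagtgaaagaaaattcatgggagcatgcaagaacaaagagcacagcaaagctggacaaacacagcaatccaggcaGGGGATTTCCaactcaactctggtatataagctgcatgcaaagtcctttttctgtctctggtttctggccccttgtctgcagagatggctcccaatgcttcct
TAP1: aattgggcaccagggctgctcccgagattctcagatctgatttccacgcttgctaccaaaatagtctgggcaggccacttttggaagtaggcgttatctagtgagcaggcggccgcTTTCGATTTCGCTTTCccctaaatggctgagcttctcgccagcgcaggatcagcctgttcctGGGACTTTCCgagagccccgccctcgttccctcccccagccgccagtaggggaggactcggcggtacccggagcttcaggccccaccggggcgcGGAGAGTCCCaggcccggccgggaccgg
B2M: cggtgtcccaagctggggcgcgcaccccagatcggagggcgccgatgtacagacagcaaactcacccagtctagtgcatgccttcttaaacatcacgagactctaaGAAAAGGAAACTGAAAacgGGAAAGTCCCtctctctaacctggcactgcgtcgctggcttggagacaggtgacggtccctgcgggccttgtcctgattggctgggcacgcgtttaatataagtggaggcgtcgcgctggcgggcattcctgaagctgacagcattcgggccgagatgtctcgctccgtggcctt

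Libraries held 3940000 to 9660000 counts (median 6460000), in which 13252 to 16812 genes had a count. Levels below are CPM, counts relative to the library total, scaled by the TMM method over all 30 libraries, each as the mean ± SD of 3 libraries. A gene without counts could still have been present at 0.311 to 0.762 CPM, the limit that 3 counts set in the deepest and the shallowest library, for counting error only. The 9 hepatic markers were present in every library with a sum of 7180 to 17200 CPM. Of 7 immune cell markers, CD3E and NKG7 were at 0 in all 30 libraries and PTPRC in 29. The sum of 104 to 313 CPM for that list was mostly LYZ. Endothelial VWF was at 0 throughout.

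UBD stood highest in the vehicle-treated mimic control at 24 h and lowest in the cells with the miR-512-3p mimic. In MC with DMSO the 3 libraries were at 49.2, 39.8 and 62.8 CPM (mean 50.6 ± 11.6), above every other library of the study. In M512 with DMSO they were at 6.97, 3.5 and 3.12 CPM (4.53 ± 2.12), which rests on 56, 23 and 22 counts. The groups did not overlap, and the log2 fold change was -3.48 (SE 0.42), or 0.0893 times the control. This is the difference for which the gene was picked.

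Under Sorafenib, M512 was at 10, 9.56 and 3.86 CPM and MC at 32.4, 15.3 and 17.5 CPM. All 3 mimic libraries again lay below all 3 controls, with a log2 fold change of -1.51 (SE 0.39). With 1 library left out it ran from -1.73 to -1.07. These values are a description too, since the choice of the gene named no treatment.

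**Figure D1:**
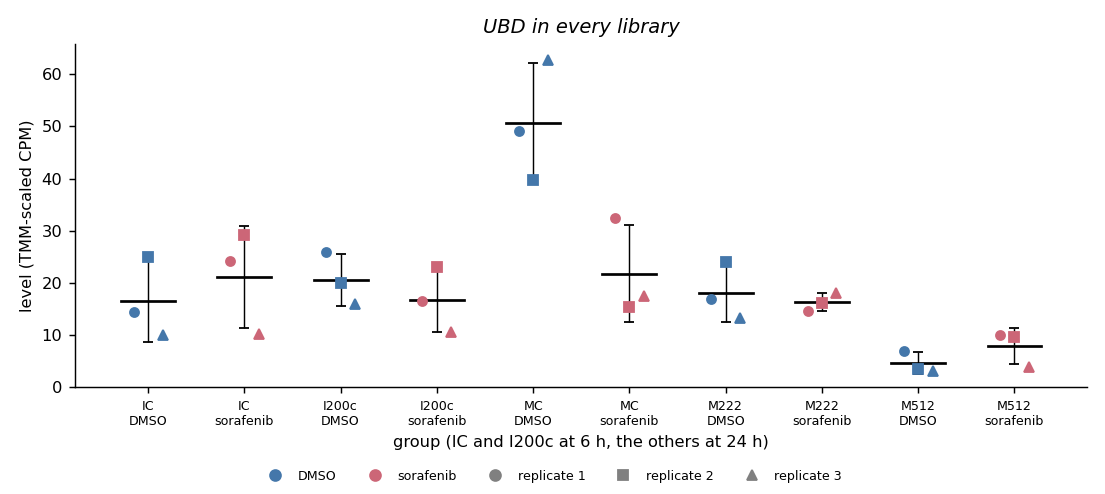
UBD level in TMM-scaled CPM (y axis, linear) in each library of the 10 groups (x axis). Points are libraries, with replicate number by shape and treatment by color, and lines and bars are the mean ± SD of 3. MC with DMSO sits at 39.8 to 62.8 CPM, above all other libraries, and both M512 groups sit at 10 CPM or below.

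The 7 groups other than MC with DMSO and M512 had similar UBD levels. Their means ran from 16.3 to 21.7 CPM, and neighbors in that order overlapped. MC with Sorafenib came first of these at 21.7 ± 9.31, then IC with Sorafenib at 21.1 ± 9.78, I200c with DMSO at 20.6 ± 4.98 and M222 with DMSO at 18 ± 5.46. I200c with Sorafenib at 16.7 ± 6.21, IC with DMSO at 16.5 ± 7.75 and M222 with Sorafenib at 16.3 ± 1.78 followed. The level of the 24 h mimic control in vehicle therefore also stood above the 6 h inhibitor control, which was at 14.3, 25 and 9.99 CPM. The 24 h and 6 h sets differ in oligonucleotide and time at once, so these cannot be told apart.

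Every low value of UBD relative to MC in vehicle leans on the same 3 libraries. The miR-222-5p mimic with DMSO was at 16.8, 23.9 and 13.2 CPM, a log2 fold change of -1.51 against MC. Sorafenib in MC gave a difference of -1.21 on the log2 scale. Both are given with no test, since they share libraries with the comparison that picked the gene, and so is M222 against MC in Sorafenib, at -0.44 (SE 0.38). UBD did not pass in any comparison that used neither MC nor M512. Sorafenib in M222 was -0.15 (SE 0.38, edgeR adjusted p = 0.879), in IC 0.35 (SE 0.37, adjusted p = 0.999) and in I200c -0.30 (SE 0.36, adjusted p = 0.738). In M512, Sorafenib gave +0.76 with no test, and the libraries overlapped. I200c against IC was 0.33 in DMSO (edgeR adjusted p = 0.991) and -0.32 in Sorafenib (edgeR adjusted p = 1).

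Other measures moved with the same M512 libraries. In vehicle, the hepatic markers summed to 16200 to 17200 CPM in M512 and 12400 to 14100 in MC. The 9 markers did not move together, with a median log2 fold change of 0.14. FGB, the fibrinogen beta chain, was lower, at 133 ± 7.41 CPM in M512 and 268 ± 12.7 in MC. The immune list summed to 248 to 313 against 106 to 145 CPM, nearly all of it LYZ, an enzyme of myeloid and some epithelial cells. The stromal and endothelial list summed to 51.8 to 55.1 against 84.1 to 118 CPM. Most of that was ACTA2, an actin of contractile cells, at 40.1 ± 1.93 against 95.7 ± 16.3 CPM. The 3 genes of that list that passed the filter on low counts had a median log2 fold change of 1.77, so the list did not move one way. Under Sorafenib the ranges of M512 and MC overlapped for the hepatic and immune lists. For the stromal list they were 27 to 38 against 56.3 to 73.8 CPM, and ACTA2 was called at -1.01 (SE 0.21, edgeR adjusted p = 0.0228). Their part in the UBD difference was not tested. Fewer cells making a transcript and less transcript per cell cannot be told apart in bulk libraries.

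UBD (ENSG00000213886) lies at chr6:29555515-29559732 on the minus strand of GRCh38. On the same chromosome lie HLA-C (chr6:31268749-31272130), HLA-B (chr6:31353872-31367067), TAP2 (chr6:32821833-32838739), PSMB8 (chr6:32840717-32844679) and TAP1 (chr6:32845209-32853816), all on the minus strand, and PSMB9 (chr6:32844136-32859851) on the plus strand. PSMB10 (chr16:67934506-67936864, minus strand) and B2M (chr15:44711358-44718851, plus strand) lie elsewhere. In the annotation at hand, 722 of the 894 exon bases of UBD (80.8%) are shared with a transcript of GABBR1 on the same strand. With OR2I1P on the opposite strand, UBD shares 836 (93.5%). GABBR1, a subunit of the receptor for the transmitter GABA, had 0 to 12 counts summed over the 3 libraries of any group, and OR2I1P, an olfactory receptor pseudogene, had 0. Which annotation and which strand setting were used in counting is not given in the sources used here. PSMB10 shares 39.4% of its exon bases with an unnamed gene on the same strand, TAP2 19.5% with a readthrough gene, HLA-B 30.7% with the pseudogene DHFRP2, and PSMB8, PSMB9 and TAP1 smaller parts with PSMB8-AS1.

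Among the immunoproteasome subunits, PSMB9 and PSMB8 had their 2 lowest group means in the M512 groups, where UBD was also lowest, while PSMB10 was lowest in MC with DMSO. For PSMB9 and PSMB8 both M512 groups overlapped the group next above. PSMB9, the subunit that replaces PSMB6, was at 0.871, 3.5 and 3.26 CPM in M512 with DMSO, on 7, 23 and 23 counts, and at 12, 11.6 and 7.53 CPM in MC with DMSO. The groups did not overlap, with a difference of -2.04 on the log2 scale, given with no test. Under Sorafenib the libraries were at 6.36, 1.76 and 5.48 CPM in M512 and 10.6, 11.5 and 4.55 CPM in MC. These overlapped, at -0.98 (SE 0.52, edgeR adjusted p = 0.508). PSMB9 was highest in M222 with DMSO, at 10.3, 12.6 and 20.8 CPM, which overlapped MC and stood 0.49 above it on the log2 scale (SE 0.50, edgeR adjusted p = 0.976).

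PSMB8, which replaces PSMB5, stayed between 12.3 and 40.6 CPM in all 30 libraries. Its group means went from 20 ± 7.92 in M512 with Sorafenib, the lowest, and 25 in M512 with DMSO to 36.5 ± 4.64 in M222 with Sorafenib, and every neighbor in the order overlapped. In M222 all 3 Sorafenib libraries (37.3, 40.6 and 31.5 CPM) lay above the 3 DMSO libraries (22.9, 26.2 and 29 CPM). The log2 fold change of 0.48 (SE 0.27) had an edgeR adjusted p of 0.356. The share of all genes that lay apart in this way was not counted. PSMB10, which replaces PSMB7, had 0 to 31 counts in a library and 0 to 6.17 CPM, so only large differences were detectable. Its 95% interval for M222 against MC in Sorafenib ran from -2.87 to 2.35 on the log2 scale. MC_sorafenib replicate 2 held the 31 counts.

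The constitutive subunits were measured for comparison, each within its own range. PSMB5 was at 341 to 565 CPM, PSMB6 at 186 to 348 CPM and PSMB7 at 120 to 481 CPM. None of the 14 genes in the list of constitutive subunits and proteasome regulators was called in any single comparison of 2 groups by edgeR. With DESeq2, 1 was called for Sorafenib in MC.

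**Figure D2:**
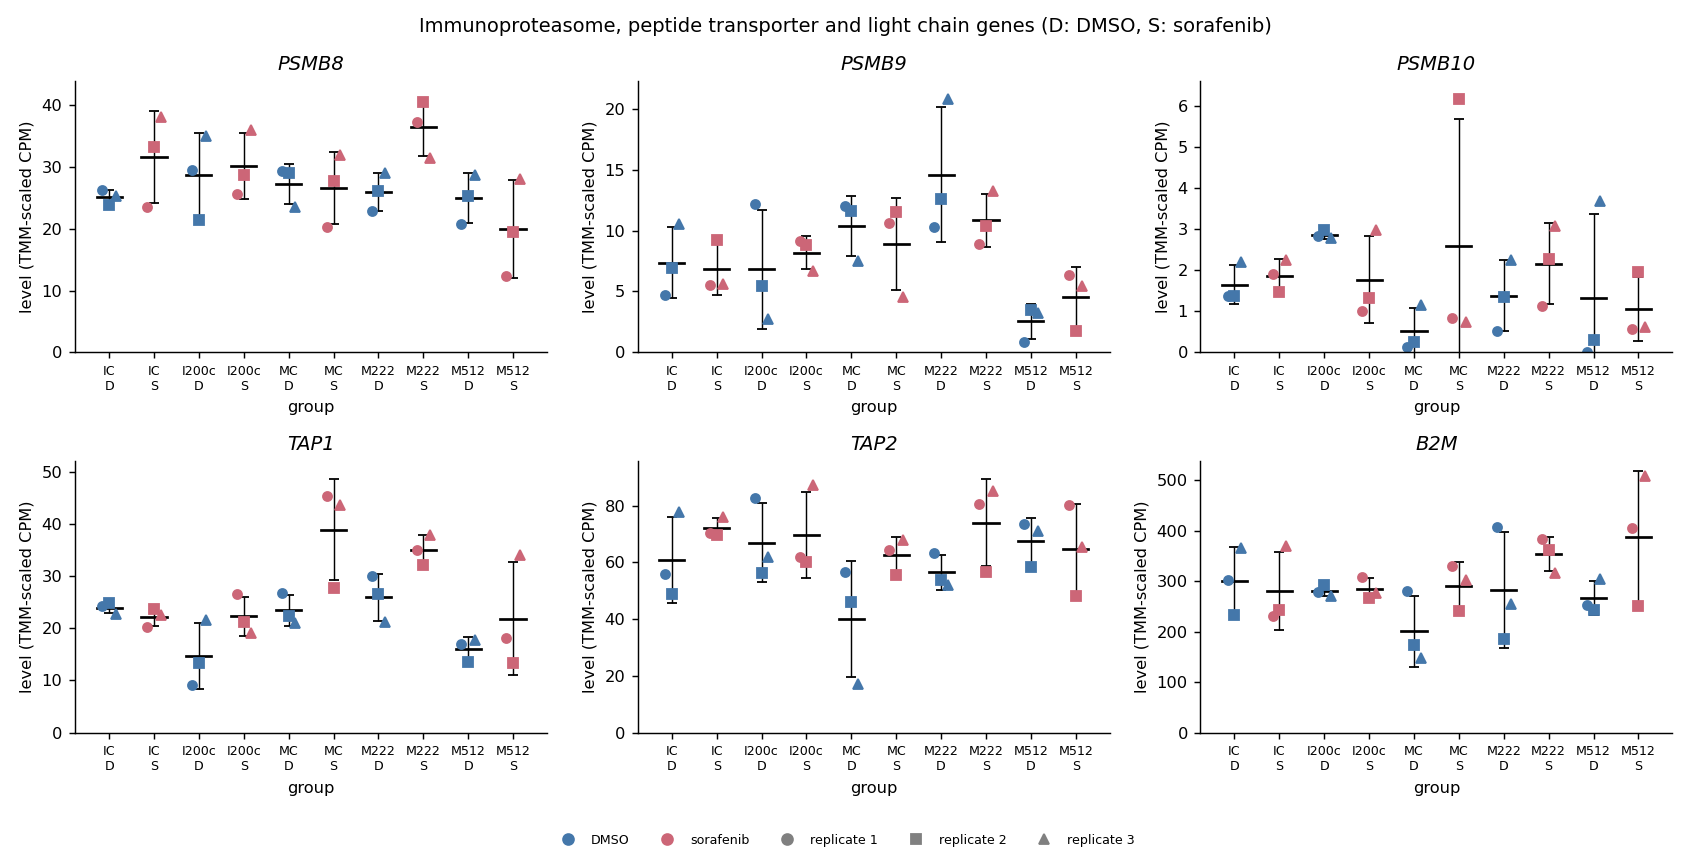
Levels in TMM-scaled CPM (y axes, linear, each with its own range) of PSMB8, PSMB9, PSMB10, TAP1, TAP2 and B2M in each library by group (x axes, D for DMSO and S for Sorafenib, IC and I200c at 6 h and the others at 24 h). Points are libraries and lines with bars are the mean ± SD of 3, with bars cut at 0. PSMB9 in M512 with DMSO is at 0.871 to 3.5 CPM, and TAP1 in MC and M222 is higher with Sorafenib than with DMSO in every library.

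TAP1, the transporter subunit whose gene lies head to head with PSMB9, was higher with Sorafenib in every library of MC and M222 at 24 h, though it passed in no single transfection. In MC it went from 26.8, 22.4 and 21.1 CPM with DMSO to 45.3, 27.7 and 43.6 CPM with Sorafenib, without overlap. In M222 it went from 30.1, 26.6 and 21.2 to 34.9, 32.2 and 37.8 CPM, again without overlap. In M512 the values were 16.9, 13.6 and 17.8 with DMSO and 18.1, 13.3 and 34 with Sorafenib, which overlapped. The single log2 fold changes were 0.73 (SE 0.29, edgeR adjusted p = 0.189), 0.42 (SE 0.29, edgeR adjusted p = 0.47) and 0.44 (SE 0.30, edgeR adjusted p = 0.395), and none passed. The M512 value rests on M512_sorafenib replicate 3 and was -0.03 without it. The share of all genes whose Sorafenib and DMSO libraries lay apart in this way was not counted. At an unadjusted edgeR p under 0.05, Sorafenib held 16.9% of all genes in MC and 19.1% in M222.

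Averaged over the 3 transfections of 24 h, TAP1 rose by 0.53 on the log2 scale (SE 0.17, edgeR adjusted p = 0.0233). B2M, the light chain of every class I molecule, rose by 0.47 (SE 0.16, edgeR adjusted p = 0.0292). The average was added after the values were seen. In the same average 25.8% of 13244 genes were called, so 2 of 8 tested members is close to the share of all genes. Scaling by total counts moved the median of all genes from -0.04 to -0.17 in this average. TAP1 was then at 0.40 (edgeR adjusted p = 0.096) and B2M at 0.33 (edgeR adjusted p = 0.134). Without M512_sorafenib replicate 3, TAP1 was at 0.37 (edgeR adjusted p = 0.0898) and B2M at 0.38 (edgeR adjusted p = 0.0693), both short of the threshold. B2M was also lost without MC_DMSO replicate 3 (edgeR adjusted p = 0.0707) or M512_DMSO replicate 1 (edgeR adjusted p = 0.0565).

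Hepatic markers fell with Sorafenib in the same libraries. Their sum went from 12400 to 14100 CPM with DMSO to 8840 to 11000 CPM in MC, from 11000 to 13600 down to 7180 to 10100 CPM in M222 and from 16200 to 17200 down to 9100 to 11000 CPM in M512. In the 24 h average 5 of the 9 were called lower, beside 25.8% of all genes in either direction. These were APOB at -1.06 on the log2 scale (SE 0.15, edgeR adjusted p = 1.23e-05), HNF4A, AFP, TTR and ALB, the last at -0.35 (SE 0.11, edgeR adjusted p = 0.0158). LYZ of the immune list was at -0.35 (SE 0.12, edgeR adjusted p = 0.0373) and ACTA2, of the stromal list at -0.54 (SE 0.12, edgeR adjusted p = 0.00144). In single transfections APOB (-0.99) and HNF4A (-0.86) were called lower in M222. HNF4A (-1.40), APOB (-1.28), AFP (-1.06), LYZ (-0.97) and ALB (-0.62) were called lower in M512. Their part in the TAP1 and B2M differences was not tested. PDGFRB, a receptor of stromal cells, was also called lower in M512, in I200c and in the 6 h average, from 2.64 ± 1.27, 3.44 ± 2.17 and 2.71 ± 1.72 CPM with DMSO, so on few counts.

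B2M spread widely within groups at 24 h. MC with DMSO was at 281, 174 and 147 CPM and with Sorafenib at 331, 240 and 303. M222 was at 408, 185 and 254 CPM with DMSO and 383, 361 and 317 with Sorafenib. M512 was at 253, 242 and 305 with DMSO and 406, 250 and 508 with Sorafenib, and in all 3 transfections the treatments overlapped. TAP2, the other transporter subunit, was at 56.6, 46 and 17.2 CPM in MC with DMSO, where replicate 3 was the lowest of all libraries. The other 9 group means of TAP2 ran from 56.5 to 74 CPM. Its average Sorafenib difference at 24 h was 0.33 (SE 0.17, edgeR adjusted p = 0.162).

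With the miR-512-3p mimic under Sorafenib, TAP1 differed from MC by -0.85 on the log2 scale (SE 0.29, edgeR adjusted p = 0.233) and the libraries overlapped. In vehicle the M512 libraries all lay below MC, at -0.56 on the log2 scale with no test. TAP2, which holds the miR-200c-3p sites, was 0.15 higher in I200c than in IC with DMSO (SE 0.20, edgeR adjusted p = 0.991) and -0.03 with Sorafenib (SE 0.20, edgeR adjusted p = 1). TAP1 in I200c with DMSO was at 9.1, 13.4 and 21.5 CPM against 24.3, 24.8 and 22.7 in IC, without overlap, at -0.68 (SE 0.26, edgeR adjusted p = 0.899). With Sorafenib that difference was 0.02.

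**Figure D3:**
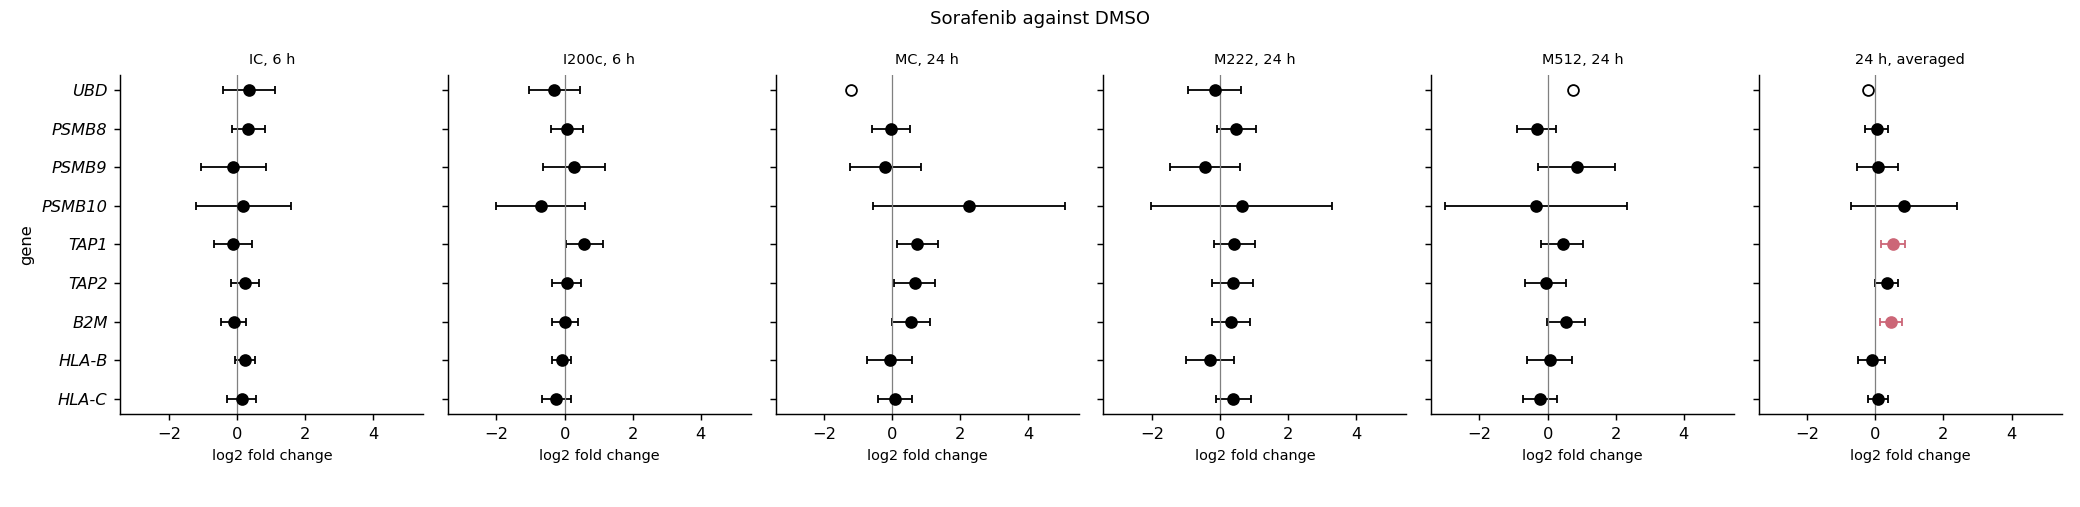
Log2 fold change of Sorafenib against DMSO (x axis) for the 9 genes (y axis) in each transfection and averaged over the 3 transfections of 24 h. Filled points carry 95% intervals from edgeR, red marks an adjusted p under 0.05, and open points are UBD values given with no test. TAP1 at 0.53 and B2M at 0.47 in the average are the 2 called values.

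HLA-B and HLA-C, which encode class I heavy chains, stood lower with the miR-222-5p mimic than with its control. HLA-B was at 17.4, 44.2 and 18 CPM in M222 with DMSO and 66.8, 63.2 and 57.3 CPM in MC with DMSO. With Sorafenib it was at 14.5, 33.8 and 16.9 CPM in M222 and 43.2, 59.1 and 74.7 CPM in MC. Within each treatment all M222 libraries lay below all MC libraries, and replicate 2 was the highest of the 3 M222 libraries both times. The 6 h groups and M512 stayed at 45.6 to 75.8 CPM, so the low HLA-B level was seen in the M222 groups.

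The log2 fold change of HLA-B in M222 against MC was -1.26 in DMSO (SE 0.33, edgeR adjusted p = 0.316) and -1.47 in Sorafenib (SE 0.34, edgeR adjusted p = 0.295). Neither passed, and edgeR called 0% of all genes in either comparison. DESeq2 put the adjusted p at 0.0582 in DMSO and 0.0199 in Sorafenib. Without replicate 2 of M222, edgeR called HLA-B in each, at -1.81 in DMSO (adjusted p = 0.0148) and -1.9 in Sorafenib (adjusted p = 0.0192). That replicate was the highest M222 library for HLA-B, so leaving it out widens the difference by construction. Not every fit with 1 library left out called a member. Averaged over both treatments, which was added after the values were seen, HLA-B fell by 1.36 on the log2 scale (SE 0.24, edgeR adjusted p = 0.00989), to 0.389 times the control. In that average 0.483% of genes were called. Leaving out M222_sorafenib replicate 1 or 3 raised the edgeR adjusted p to 0.0525 and 0.0512, and the log2 fold change stayed between -1.63 and -1.23 with any 1 library left out.

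HLA-C moved the same way by less. It was at 43.2, 52.6 and 43.7 CPM in M222 with DMSO against 99.4, 83.3 and 92.8 in MC, and at 56.7, 69 and 57.1 CPM with Sorafenib against 102, 86.8 and 101 in MC. The 6 M222 libraries all lay below the 6 MC libraries. The single log2 fold changes were -0.99 (SE 0.25, edgeR adjusted p = 0.247) and -0.68 (SE 0.25, edgeR adjusted p = 0.681). The average of both, added after the values were seen, was -0.84 (SE 0.18, edgeR adjusted p = 0.0274). The call was lost in 8 of 12 fits that left out 1 library, with log2 fold changes of -0.87 to -0.79 and an edgeR adjusted p of up to 0.118. HLA-C, unlike HLA-B, was also lower in M512 than in MC, at 54.4, 62.9 and 82.9 CPM with DMSO and 63.6, 30.2 and 77.8 with Sorafenib. Against MC in Sorafenib that was -0.77 (SE 0.25, edgeR adjusted p = 0.192), without overlap. At 6 h the HLA-C means were 66.2 ± 12.8 CPM in IC with DMSO and 73.4 ± 11 with Sorafenib. In I200c they were 93 ± 14.5 and 79.1 ± 21.2 CPM. IC with DMSO was thus near M512 with DMSO and overlapped M222 with Sorafenib, so low HLA-C was not confined to the mimic groups.

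HLA-B and HLA-C are near copies of each other and of further class I genes, and how the counting treated reads that match several of them is not given in the sources used here. In M222 against MC the tested light chain, B2M, stood higher by 0.49 in DMSO (edgeR adjusted p = 0.925) and 0.26 in Sorafenib (edgeR adjusted p = 0.963), with overlap. The loading factors and other class I genes did not pass either, with 0 of 12 called in both treatments.

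Other measures moved with the same M222 libraries. The stromal and endothelial markers summed to 62.6 to 83.9 CPM in M222 and 84.1 to 118 in MC with DMSO, and to 48.2 to 53.8 against 56.3 to 73.8 CPM with Sorafenib. The immune list, mostly LYZ, summed to 160 to 235 against 106 to 145 CPM with DMSO, and overlapped with Sorafenib at 153 to 195 against 104 to 160 CPM. Their part in the HLA-B and HLA-C differences was not tested. Same-numbered libraries of M222 and MC with DMSO deviated together, and with the replicate number as a block HLA-B was at -1.34 (edgeR adjusted p = 0.114) and HLA-C at -0.98 (edgeR adjusted p = 0.161) in that comparison, still short of the threshold.

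**Figure D4:**
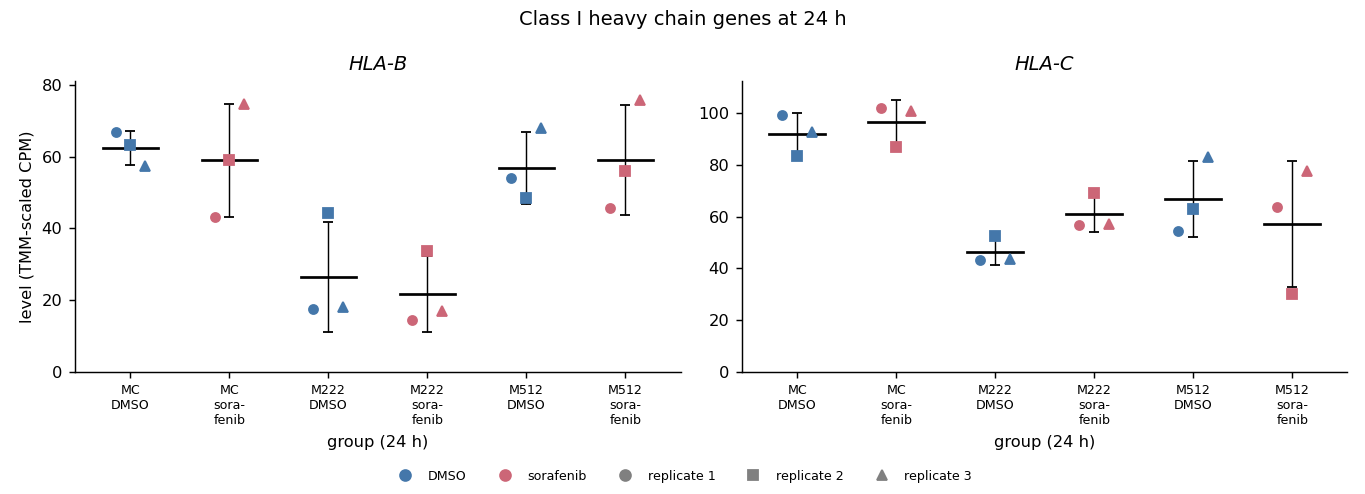
Levels in TMM-scaled CPM (y axes, linear, each with its own range) of HLA-B and HLA-C in each library of the 24 h groups (x axes). Points are libraries and lines with bars are the mean ± SD of 3. HLA-B in M222 is at 14.5 to 44.2 CPM and in MC at 43.2 to 74.7 CPM, and HLA-C in M222 is at 43.2 to 69 CPM and in MC at 83.3 to 102 CPM.

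**Figure D5:**
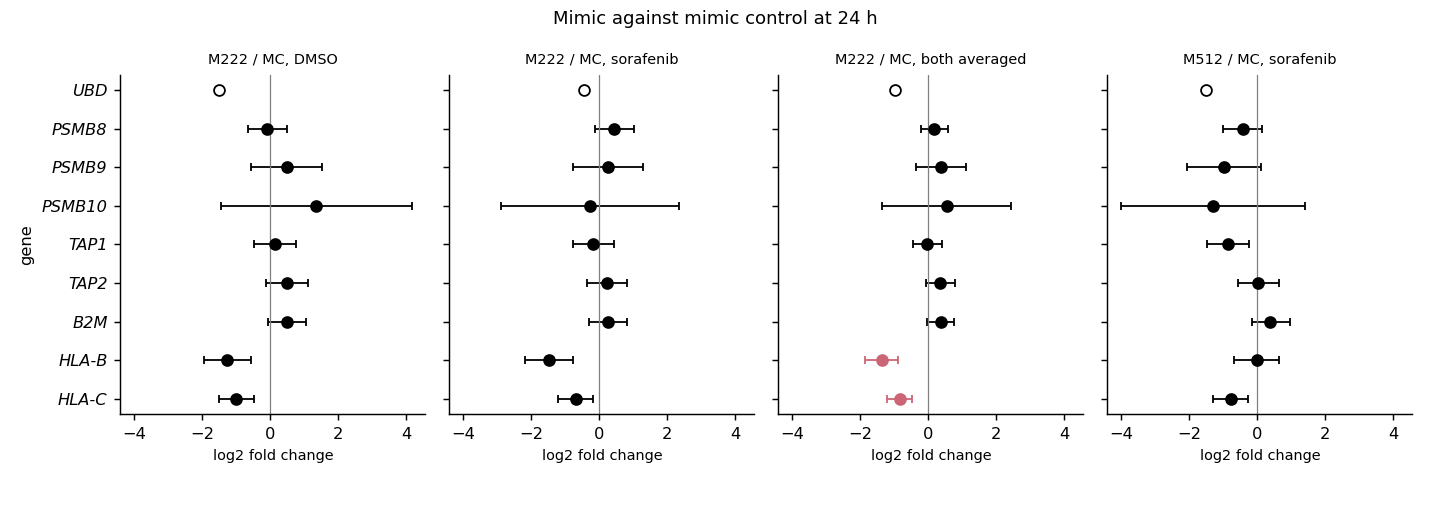
Log2 fold change of a mimic against the mimic control (x axis) for the 9 genes (y axis), for M222 in each treatment and averaged over both, and for M512 in Sorafenib. Filled points carry 95% intervals from edgeR, red marks an adjusted p under 0.05, and open points are UBD values given with no test. HLA-B at -1.36 and HLA-C at -0.84 in the M222 average are the 2 called values.

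Across the planned comparisons edgeR called 0 of the tested members at an adjusted p under 0.05. For Sorafenib this was 0 of 9 in IC (0.0393% of all genes called), 0 of 9 in I200c (2.28%), 0 of 8 in MC (2.6%), 0 of 9 in M222 (4.38%) and 0 of 8 in M512 (9.96%). At an unadjusted p under 0.05 these held 0, 1, 2, 0 and 0 members, beside 481, 1945, 2232, 2531 and 3205 genes in all. DESeq2 also called 0 members in each of the 5. For I200c against IC it was 0 of 9 in DMSO (0.0157%) and 0 of 9 in Sorafenib (0%), with 2 and 0 members at an unadjusted p under 0.05, beside 667 and 273 genes, and 0 by DESeq2.

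For M222 against MC it was 0 of 8 in DMSO (0%) and 0 of 8 in Sorafenib (0%), with 2 members each at an unadjusted p under 0.05, beside 737 and 800 genes. DESeq2 called 1 member in each, HLA-C in DMSO and HLA-B in Sorafenib. For M512 against MC in Sorafenib it was 0 of the 8 tested (0.355%), with 2 members at an unadjusted p under 0.05, TAP1 and HLA-C, beside 1465 genes, and 0 by DESeq2. The interactions of each oligonucleotide with Sorafenib also held 0 called members, beside 0% of all genes with I200c, 0% with M222 and 0.00755% with M512. None of the tested members had an unadjusted p under 0.05 there, beside 413, 260 and 667 genes, and DESeq2 called 0 members. The averages over IC and I200c, added after the values were seen, held 0 of 9 members for Sorafenib (2.89%) and 0 of 9 for I200c (0%), with 0 and 1 members at an unadjusted p under 0.05, beside 1962 and 558 genes.

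The members whose mimic libraries all lay below all controls were counted next to the share of all genes that did the same. In M512 against MC with DMSO these were UBD, PSMB9, TAP1 and HLA-C, 4 of 9, beside 10.3% of genes. Since that comparison picked UBD, nothing is read from the count. With Sorafenib they were UBD and HLA-C, 2 of 9, beside 7.41% of genes, and nothing is read from the place of UBD. In M222 against MC they were UBD, HLA-B and HLA-C with DMSO, 3 of 9, beside 7.32%, and HLA-B and HLA-C with Sorafenib, 2 of 9, beside 6.19%. In vehicle UBD rests on the MC libraries that picked it, so nothing is read from its place there either. The comparisons with MC share its libraries within a treatment.

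Genes of NF-kappaB and interferon signalling, components as well as targets, were read as lists, chosen with earlier results of these data known. In M512 against MC under Sorafenib, RELA fell by 1.15 on the log2 scale (SE 0.22, edgeR adjusted p = 0.0135), the 1 gene of 17 called in the list of NF-kappaB components and targets, beside 0.355% of all genes. It was at 50.1, 36.1 and 41.6 CPM in M512 and 101, 87.8 and 92.5 in MC. With DMSO it was at 63.8, 53.6 and 50 CPM against 94.2, 89.5 and 145, lower by 0.99 on the log2 scale with no test. The list's median under Sorafenib was -0.12, beside -0.01 for all genes. NFKBIA and TNFAIP3, inhibitors that NF-kappaB induces, were at 0.1 (SE 0.30, edgeR adjusted p = 0.936) and 0.31 (SE 0.25, edgeR adjusted p = 0.709). The part of RELA, or of IRF1 and IRF2 given next, in the UBD difference was not tested.

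IRF2, which binds interferon response elements, fell by 1.41 in the same comparison (SE 0.30, edgeR adjusted p = 0.0335), from 29.3, 21.3 and 23.3 CPM in MC to 8.47, 14 and 5.85 in M512. It was the 1 gene of 15 called among interferon receptors and signalling, beside 0.355% of all genes. IRF1, an activator of PSMB9, TAP1 and class I genes, was at 8.46, 9.14 and 8.36 CPM in M512 with DMSO and 17.7, 25.6 and 21.4 in MC, without overlap and with no test. Under Sorafenib it was at 31, 33 and 24.6 CPM against 32.7, 35.6 and 44.6, at -0.37 (SE 0.29, edgeR adjusted p = 0.699). CD74, the invariant chain of class II molecules, had 32.6, 24.7 and 23.4 CPM in M512 and 79.9, 52.6 and 63.7 in MC with DMSO. With Sorafenib it overlapped, at -0.13 (edgeR adjusted p = 0.877). It rose with Sorafenib in M512, by 0.79 (SE 0.22, edgeR adjusted p = 0.0219), a call that scaling by total counts lost. CD74 was the only 1 of 10 class II genes that passed the filter on low counts.

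NFKBIA, the inhibitor that NF-kappaB itself induces, was called higher with Sorafenib in all 3 transfections of 24 h and in I200c at 6 h. UBD, itself a target of this pathway, was tested in IC, I200c and M222 and was not called, with an SE of 0.36 to 0.38. With no test, it was at -1.21 in MC and 0.76 in M512. The relation of UBD to these genes was not tested. NFKBIA went from 214, 351 and 143 CPM to 1300, 698 and 1190 CPM in MC (log2 fold change 2.18, SE 0.31, edgeR adjusted p = 0.000532). It rose by 2.15 in M222 (SE 0.31, edgeR adjusted p = 0.000341) and by 2.62 in M512 (SE 0.31, edgeR adjusted p = 8.64e-06). In I200c at 6 h it rose by 1.41 (SE 0.18, edgeR adjusted p = 0.000129), and TNFAIP3, another feedback inhibitor, by 1.31 (SE 0.20, edgeR adjusted p = 0.00101). TNFAIP3 also rose by 1.33 in MC (SE 0.26, edgeR adjusted p = 0.00488) and by 1.67 in M512 (SE 0.26, edgeR adjusted p = 0.000159), but did not pass in M222 (0.63, edgeR adjusted p = 0.171). In IC at 6 h all Sorafenib libraries lay above all DMSO libraries for both, at 0.82 for NFKBIA and 0.95 for TNFAIP3, each with an edgeR adjusted p of 0.108. Of the 17 genes of this list tested at 24 h, 2 were called in MC (2.6% of all genes) and 1 in M222 (4.38%). In M512 the called genes of this list were 5 of 17 (9.96% of all genes), all higher, adding BIRC3, CXCL2 and RELB, the last at 1.66 (SE 0.45, edgeR adjusted p = 0.0204). BIRC3 and CXCL2 were at 1.16 ± 1.89 and 0.0415 ± 0.0719 CPM with DMSO, so their folds rest on few counts. In the average over 24 h, added after the values were seen, 9 of 17 were called higher and 0 lower, beside 25.8% of all genes in either direction, from CXCL2 at 3.87 and CXCL8 at 2.69, both chemokines with few counts, to NFKBIB at 0.83 and NFKB1 at 0.34 on the log2 scale. The median of the list was 0.72 in MC, 0.63 in M222 and 0.71 in M512, beside -0.01, -0.03 and -0.03 for all genes. In I200c 4 of 16 were called (2.28% of all genes), 2 higher and 2 lower, with CCL20, a chemokine, at -2.13 (SE 0.51, edgeR adjusted p = 0.0299) and RIPK1, a kinase of tumor necrosis factor signalling, at -0.98 (SE 0.21, edgeR adjusted p = 0.0163). In the 6 h average 5 were called, with TNFAIP3 at 1.13 and NFKBIA at 1.12 the highest and CXCL8, on few counts, at -2.83 and CCL20 at -2.01 the lowest.

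Interferon genes did not move one way with Sorafenib. IRF1 rose by 1.77 in M512 (SE 0.31, edgeR adjusted p = 0.000539) and by 1.31 in I200c (SE 0.21, edgeR adjusted p = 0.00144). In MC and M222 all its Sorafenib libraries lay above all DMSO libraries, at 0.81 (edgeR adjusted p = 0.142) and 0.88 (edgeR adjusted p = 0.0964). STAT2, a mediator of type I interferon signals, fell in M512, to -1.69 (SE 0.40, edgeR adjusted p = 0.00687), and in M222, to -1.51 (SE 0.39, edgeR adjusted p = 0.0257). IRF2 fell by 1.22 in M512 (SE 0.30, edgeR adjusted p = 0.0102). MAVS, the adaptor of RNA sensors, fell in all 3 transfections of 24 h, to log2 fold changes of -0.86 for MC (edgeR adjusted p = 0.0225), -1.03 for M222 (edgeR adjusted p = 0.00502) and -1.45 for M512 (edgeR adjusted p = 6.52e-05), each with an SE of 0.21. It was the 1 gene of 7 called among the sensors each time, beside 2.6% of all genes in MC, 4.38% in M222 and 9.96% in M512. In the average over 24 h, 3 of 15 interferon receptor and signalling genes were called higher and 4 lower, a total of 7 beside 25.8% of all genes. The highest were IRF1 at 1.16 (SE 0.17, edgeR adjusted p = 2.81e-05) and the interferon gamma receptor IFNGR1 and the kinase JAK2 at 1.02 each, and the lowest were STAT2 at -1.34 (SE 0.22, edgeR adjusted p = 9.77e-05) and IRF2 at -0.70 (SE 0.17, edgeR adjusted p = 0.00328). Also in that average MAVS, at -1.11, and RIGI, a sensor of viral RNA, at -1.43 (SE 0.41, edgeR adjusted p = 0.0122), were called among the 7 sensors. At 6 h, the average over IC and I200c held IRF1 at 1.05 (SE 0.15, edgeR adjusted p = 0.000316) and the receptor IFNAR2 at -0.70 (SE 0.14, edgeR adjusted p = 0.00718) as called genes of the interferon list, beside 2.89% of all genes. Of 20 interferon-stimulated genes tested, 0 were called in MC (2.6% of all genes), 0 in M222 (4.38%) and 2 in M512 (9.96%). These were ISG15, a ubiquitin-like modifier, at 1.93 (SE 0.56, edgeR adjusted p = 0.0294) and DTX3L, a ubiquitin ligase, at -1 (SE 0.27, edgeR adjusted p = 0.0203). In the 24 h average 1 of the 20 was called higher, ISG15 at 0.97 (SE 0.32, edgeR adjusted p = 0.026), and 3 lower, DTX3L at -0.67 (SE 0.16, edgeR adjusted p = 0.00262), its partner PARP9 at -0.94 (SE 0.27, edgeR adjusted p = 0.0112) and XAF1 at -2.79, which was at 2.08 ± 1.34 CPM with DMSO and so rests on few counts. In that average 25.8% of all genes were called in either direction. The medians of the interferon-stimulated list were -0.23 in MC, -0.35 in M222 and -0.32 in M512.

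Genes that work with UBD or load class I molecules gave few calls. In the list of 10 FAT10 pathway genes, SQSTM1, an autophagy receptor that binds FAT10, rose by 0.96 with Sorafenib in M512 (SE 0.21, edgeR adjusted p = 0.00485). It was the 1 called gene of that list in any single comparison of 2 groups other than M512 against MC with DMSO. For Sorafenib in M512, 9.96% of all genes were called. Of the 12 to 13 tested loading and other class I genes, 0 were called for Sorafenib in any transfection by edgeR, and DESeq2 called 1 in M512. In the 24 h average of Sorafenib, CALR, a chaperone of the loading complex, fell by 0.31 (SE 0.11, edgeR adjusted p = 0.0364) and HLA-E, a class I gene read by natural killer cells, fell by 0.41 (SE 0.15, edgeR adjusted p = 0.0489). PSME1, a subunit of the proteasome activator PA28, fell by 0.29 (SE 0.09, edgeR adjusted p = 0.0257). In the FAT10 list SQSTM1 was at 0.53 in that average (SE 0.12, edgeR adjusted p = 0.00229), UBE2Z, an enzyme that passes FAT10 on to its targets, at -0.46 (SE 0.17, edgeR adjusted p = 0.0482) and LGALS3BP, a secreted glycoprotein, at -0.47 (SE 0.15, edgeR adjusted p = 0.0237). TAP1 and B2M rose in the same average, in which 25.8% of all genes were called.

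Correlations between members over the 24 h libraries differed in size, and they include the MC and M512 libraries that picked UBD and carry most of its range. Over the 18 libraries of 24 h, Pearson's r between log2 levels of UBD and PSMB9 was 0.575, and between UBD and TAP1 0.404, while it was -0.0741 between UBD and HLA-B. TAP2 and B2M had 0.705 and HLA-B and HLA-C 0.521. These values describe libraries that share transfections and controls. The genes most like UBD over the same libraries, for which the same limit holds, were HSPA4L (r = 0.876), DCTN1 (0.867), GDE1 (0.855), DDB2 (0.849) and PKN2 (0.848). HSPA4L, a heat shock protein, was at 53.6 ± 3.69 CPM in MC and 23.9 ± 2.25 in M512 with DMSO. In the 12 libraries of 6 h, r with UBD was 0.397 for HSPA4L, 0.828 for DCTN1, -0.0707 for GDE1, 0.154 for DDB2 and 0.692 for PKN2. Most like the mean of PSMB8, PSMB9 and TAP1 were CD24 (r = 0.906), HPRT1 (0.902), GLTP, RTN3 and MBD2 (0.86 each). GLTP, a glycolipid transfer protein, was at 22.6 ± 2.68 CPM in MC and 4 ± 1.99 in M512 with DMSO. At 6 h the 5 values ran from -0.366 to 0.766.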

How the data were processed

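RNA of 30 HepG2 samples was made into 3′ tag libraries. Per the study's methods, the authors trimmed the reads, aligned them to GRCh38 with STAR and used HTSeq-count for gene counts, all on the Bluebee platform for QuantSeq data. The deposited table holds these raw counts, 1 column per library. The annotation release, the strand setting and the use of molecular identifiers are not given in the sources used here. A normalized table was not used. Of 60199 lines, 92 name no gene (3 counts in all) and were left out.

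Groups come from the sample titles. Counts were fitted with edgeR 4.0.16 (TMM scaling, filterByExpr, quasi-likelihood F test) in R 4.3.3, apart for the 6 h libraries (12738 genes tested) and the 24 h libraries (13244 genes), with Benjamini-Hochberg adjustment over all genes tested and a threshold of 0.05. Fold changes are edgeR's and tests two-sided. Alternatives were DESeq2 1.42.0, scaling by total counts, no filter, each library left out and a replicate block. Averages over treatments or transfections were added after the values were seen. Correlations use log2 CPM with a prior count of 2. Exons and 3′ UTRs are those of GENCODE for GRCh38, with UTRs of the MANE Select transcripts, and promoters and miRNAs are from RefSeq. All 9 members matched a UTR and a promoter.

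The 9 members and all gene lists were chosen with earlier results of these data known. Named genes were all members, every called gene of a list where 4 or fewer were called in a comparison and otherwise the 2 highest and 2 lowest among those called, and the 5 genes closest to each of 2 patterns. RELA, IRF1, IRF2 and CD74 in M512 were also named after their values were seen. Genes called only in M512 against MC with DMSO are left out, apart from the level of FGB, since nothing there is tested. UBD is described and not tested wherever MC or M512 enters, a limit set after the values were seen. Same-numbered libraries had r over 0.1 in all 3 pairs only in M222 against MC with DMSO (r = 0.15, 0.16 and 0.14). Single pairs of other comparisons also passed 0.1, and 20 of 33 pairs were best matches by number. The main fits hold no term for this, and the labels give no reason for pairing. The fits were tested on simulated data. In 30 pairs of libraries of 1 group, chi-square per degree of freedom was 4.54 to 66.2, so no pair looked like 1 library under different names.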

Additional observations from a re-analysis of the deposited data

Results flagged for a closer look

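HLA-B was higher with Sorafenib in all 3 IC libraries (log2 fold change 0.24) and lower in all 3 I200c libraries (-0.09) than in the matching DMSO libraries at 6 h. Opposite directions in the 2 transfections flagged it. The test of the difference, the interaction of I200c with Sorafenib, was -0.33 (SE 0.20, edgeR adjusted p = 1) and did not pass.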

How the results depend on the processing

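Of the planned comparisons that were tested, edgeR called no member in any, and DESeq2, scaling by total counts and no filter on low counts left that count at 0 except as follows. For M222 against MC in DMSO the members called were 1 with DESeq2, 2 with no filter and 0 to 1 with 1 library left out. For M222 against MC in Sorafenib they were 1 with DESeq2, 1 with no filter and 0 to 1 with 1 library left out. Of the averages, M222 against MC went from 2 to between 0 and 2 with 1 library left out, and Sorafenib at 24 h went from 2 to 0 with total counts and to between 0 and 2 with 1 library left out. The cause was not tested. The sign of UBD for Sorafenib in M222 turned with 1 library left out, from -0.15 with all libraries to 0.14 without M222_DMSO replicate 2, the range being -0.29 to 0.14. Over all genes, DESeq2 called 34 and 26 genes for M222 against MC in DMSO and in Sorafenib where edgeR called 0, and 227 against 47 for M512 against MC in Sorafenib. With no filter edgeR called 47, 46 and 169. For Sorafenib, DESeq2 called 34 in IC, 482 in I200c, 714 in MC and 1018 in M222 against 5, 291, 344 and 580 with edgeR, and no filter gave 62, 519 and 684 in the first 3. For the M222 average they were 194 and 185 against 64. Scaling by total counts shifted the median of all genes for Sorafenib to -0.12 in MC, -0.14 in M222 and -0.22 in M512.

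Over 33 same-numbered pairs r ran from -0.11 to 0.22, with 9 over 0.1, and all 3 pairs passed 0.1 only in M222 against MC in DMSO. There the replicate block gave 3 called genes against 0. With a replicate block, the members called stayed at 0 in each planned comparison and at 2 in the M222 average and the 24 h Sorafenib average. For genes, the replicate block gave 89 against 47 calls for M512 against MC in Sorafenib and 114 against 64 for the M222 average. In 20 of the 33 pairs, the best match among the 3 libraries of the other group had the same number. Depth limits PSMB10 and the low PSMB9 and UBD values in M512.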
